A study of Mus musculus with 44 samples.

Results

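The genes described here are 10 regulators of hair follicle growth, read in bulk RNA of mouse back skin: the secreted signals Shh, Wnt10b, Fgf5, Fgf18 and Bmp4 and the transcription factors Lef1, Msx2, Dlx3, Hoxc13 and Foxn1. They were chosen by name, as signalling and transcription factor genes of the hair matrix and the dermal papilla. The choice was made with earlier results of these data known. Each gene was found under its Ensembl identifier among the 43411 genes of the deposited table. All 10 passed the filter of a mean normalized count above 3, as did 17037 genes in all. Skin came from 44 female wild-type (WT) C57Bl/6 mice, 8 weeks old at the first injection, in a bleomycin model of skin fibrosis. In it bleomycin, a drug that breaks DNA, was injected each day under the back skin (100 µL at 1 U/mL). This dose is that of the study's methods, and a figure legend of its supplement gives a lower concentration. The 5 groups were saline (10 mice), bleomycin for 2 weeks (10 mice), bleomycin for 4 weeks (10 mice), and 6 or 8 mice left untreated for a further 6 or 10 weeks once 4 weeks of injections had ended. The mice were therefore of different ages at harvest, the age of the saline mice at harvest is not given in the sources used here, and age and treatment cannot be told apart for genes of the hair cycle. In whole skin, fewer cells of a type and less RNA per cell cannot be told apart either.

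A hair follicle passes through growth (anagen), regression (catagen) and rest (telogen). In growth, WNT signals acting through LEF1 and the Hedgehog signal SHH drive division of the matrix cells at the base of the follicle around the dermal papilla, and MSX2, DLX3, HOXC13 and FOXN1 take part in turning those cells into the keratin-filled hair shaft and its sheath. BMP4 acts in matrix differentiation and, with FGF18, is known for holding follicles at rest, while FGF5 is the signal that ends growth.

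Between 8509094 and 15285577 reads were recovered per mouse, with medians by group from 9523976 (saline) to 12905996 (10 weeks of recovery), and no pair of mice in a group agreed within sampling noise. Skin markers were present in every group: the summed normalized count of 8 epidermal genes ranged from 146731 to 322062 with saline, and that of 10 skeletal muscle genes from 80121 to 265869, so the biopsies also held muscle. Single mice stood apart for these genes. Saline mouse 1 was the highest of its group for 8 of the 10 genes and the lowest for Fgf18, and mouse 4 of the 6-week recovery group was the highest of its group for those 8 genes and the lowest for Fgf18 and Bmp4. Results that change without either mouse are given with their values.

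For 7 of the 10 genes RefSeq promoter windows were at hand (assembly GRCm38.p6), 10 windows in all because Lef1 has 4 start sites. The 250 bases before the start of transcription are shown for Wnt10b, which separated saline from bleomycin without overlap, for the fourth, internal start of Lef1, for Fgf5 and for Fgf18, which was not called in any comparison. They are written 5′ to 3′ on the gene's strand, and capitals mark matches, on either strand, to 4 short motifs: the TCF/LEF core CTTTGA, the homeobox core TAATTG bound by MSX and DLX proteins, the FOXN1 core GACGC and the GLI core CCACCCA of Hedgehog signalling. The windows lie at chr15:98778151-98778400 (minus strand), chr3:131156044-131156293 (plus), chr5:98253934-98254183 (plus) and chr11:33147401-33147650 (minus).
Wnt10b: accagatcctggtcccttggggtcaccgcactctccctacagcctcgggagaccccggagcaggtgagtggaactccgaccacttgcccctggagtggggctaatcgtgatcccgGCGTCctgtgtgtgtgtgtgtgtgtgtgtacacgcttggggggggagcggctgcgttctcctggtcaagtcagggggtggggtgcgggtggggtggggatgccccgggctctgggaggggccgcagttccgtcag
Lef1, internal start: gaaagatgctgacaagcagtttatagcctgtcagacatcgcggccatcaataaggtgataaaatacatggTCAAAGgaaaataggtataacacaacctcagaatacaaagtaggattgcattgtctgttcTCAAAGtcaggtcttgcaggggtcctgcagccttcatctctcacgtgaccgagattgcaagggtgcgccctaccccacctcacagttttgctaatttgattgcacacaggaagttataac
Fgf5: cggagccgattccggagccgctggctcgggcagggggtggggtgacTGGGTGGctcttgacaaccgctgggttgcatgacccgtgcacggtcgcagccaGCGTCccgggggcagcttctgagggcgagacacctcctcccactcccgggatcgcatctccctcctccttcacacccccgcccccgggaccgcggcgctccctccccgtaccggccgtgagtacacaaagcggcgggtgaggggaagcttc
Fgf18: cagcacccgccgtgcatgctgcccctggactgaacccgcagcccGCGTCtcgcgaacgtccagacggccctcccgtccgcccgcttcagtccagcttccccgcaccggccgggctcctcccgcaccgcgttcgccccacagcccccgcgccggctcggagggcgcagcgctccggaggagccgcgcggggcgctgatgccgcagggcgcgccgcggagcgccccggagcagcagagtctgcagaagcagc

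The FOXN1 core was present in 6 of the 10 windows, those of Wnt10b, Msx2, Fgf5, Fgf18 and 2 overlapping windows of Lef1 that hold the same match, against 27.2% of 32851 promoter windows of the same length. It was thus in the window of Fgf18 as well as in windows of genes that fell. The windows of Foxn1 and Bmp4, which also fell, held no match to any of the motifs. The TCF/LEF core occurred only in the internal window of Lef1, at 2 positions (16% of all windows hold it), and the GLI core only in that of Fgf5 (9.3%). The homeobox core was in none of the 10 (8%). The window of Msx2, with 2 FOXN1 cores, lies within the first exon of its GENCODE model and is not shown. A match of these letters is a description of the window and not a binding site.

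Levels differed between the 10 genes by more than an order of magnitude in saline skin. Per kilobase of exon, the median normalized count with saline was highest for Dlx3 (354), followed by Hoxc13 (138), Bmp4 (136), Msx2 (89.3), Fgf18 (75.2) and Foxn1 (69.7), and lowest for Lef1 (22.0), Wnt10b (18.6), Shh (13.4) and Fgf5 (7.72). In 8 genes the groups fell into the same broad order by median: saline and 10 weeks of recovery at the top, 6 weeks of recovery in the middle and both bleomycin groups at the bottom. Fgf18 and Bmp4 departed from it.

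**Figure D1:**
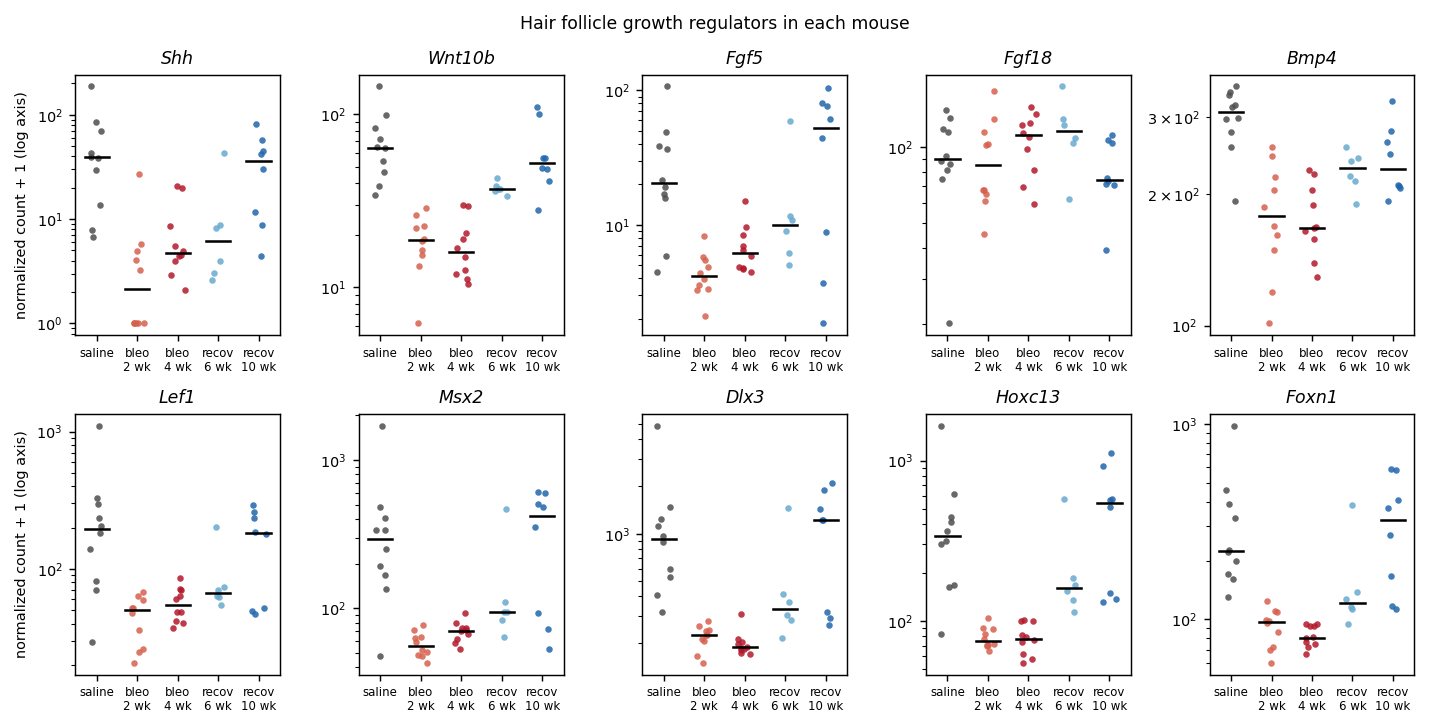
Normalized count plus 1 (log axis) of each gene in each mouse, by group, with 1 point per mouse and a bar at the group median. The bleomycin groups lie lowest for all genes but Fgf18, and the 10-week recovery mice of Msx2, Dlx3, Hoxc13, Lef1 and Fgf5 form a high and a low set.

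Among the signals, Shh (sonic hedgehog, chromosome 5, bases 28456815 to 28467256 of GRCm38, minus strand) had the largest fall. Its lowest, median and highest normalized counts were 5.71, 38.1 and 186 with saline and 0, 1.14 and 26.1 after 2 weeks of bleomycin, where 5 of 10 mice had no read and 8 had at most 3 reads. After 4 weeks of bleomycin they were 1.07, 3.71 and 19.7, after 6 weeks of recovery 1.6, 5.13 and 42.1 and after 10 weeks of recovery 3.4, 34.9 and 79.8. Bleomycin skin was thus near the floor of 3 reads in most mice, and 9 of 10 mice at 2 weeks and 7 of 10 at 4 weeks lay below every saline mouse, with the remainder inside the saline range. The log2 fold change against saline, on log2(normalized count + 1), was -3.71 (SE 0.62, adjusted p = 5.09e-06) at 2 weeks and -2.50 (SE 0.62, adjusted p = 0.00122) at 4 weeks. With a pseudocount of 0.1 in place of 1 the 2-week value was -5.45. An antisense gene and a long noncoding RNA gene overlap Shh on the other strand, and the strand setting of the counting is not given in the sources used here.

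Wnt10b, a WNT ligand of the growing matrix (chromosome 15, bases 98770712 to 98778150, minus strand), separated the groups without overlap. Its lowest, median and highest values were 33.2, 63.3 and 144 with saline, 5.2, 17.9 and 27.7 at 2 weeks of bleomycin and 9.44, 15.0 and 29.0 at 4 weeks. The highest bleomycin mouse, at 29.0, was below the lowest saline mouse. After recovery the values were 32.7, 36.0 and 42.1 at 6 weeks and 27.2, 51.4 and 109.6 at 10 weeks, so every 6-week recovery mouse lay above every mouse at 4 weeks of bleomycin and only 1 of the 6 below all saline mice. The log2 fold change against saline was -1.87 (SE 0.25, adjusted p = 7.81e-08) at 2 weeks and -1.95 (SE 0.25, adjusted p = 2.95e-08) at 4 weeks.

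Fgf5, the signal that ends growth (chromosome 5, bases 98254184 to 98277030, plus strand), was the least abundant of the 10 per kilobase with saline and also fell. With saline the lowest, median and highest values were 3.43, 19.3 and 106, at 2 weeks of bleomycin 1.09, 3.19 and 7.2 and at 4 weeks 3.5, 5.2 and 14.2. They were 4.01, 8.95 and 58.6 at 6 weeks of recovery and 0.851, 51.6 and 103 at 10 weeks. The saline and bleomycin ranges overlapped at the low end, where saline mice 2 and 6 stood at 3.43 and 4.85, and the lowest mouse of the 10-week recovery group lay below every mouse of any other group. The log2 fold change against saline was -2.35 (SE 0.56, adjusted p = 0.000862) at 2 weeks and -1.70 (SE 0.56, adjusted p = 0.0148) at 4 weeks.

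Bmp4 (chromosome 14, bases 46383520 to 46390669, minus strand) fell by less than the other called genes. Its lowest, median and highest values were 192, 307 and 352 with saline, 100.1, 177 and 256 at 2 weeks of bleomycin and 128, 166 and 226 at 4 weeks. In the recovery groups they were 189, 228 and 255 (6 weeks) and 192, 227 and 326 (10 weeks). Of the 10 mice, 6 at 2 weeks and 7 at 4 weeks were below every saline mouse. The fold was 1.69 at 2 weeks and 1.7 at 4 weeks, close to the threshold of 1.5, with log2 fold changes of -0.76 (SE 0.13, adjusted p = 1.03e-05) and -0.76 (SE 0.13, adjusted p = 9.95e-06). A protein-coding and an antisense gene overlap Bmp4 on the other strand.

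Fgf18, a signal of the resting follicle (chromosome 11, bases 33117430 to 33147400, minus strand), was the only one of the 10 not called in any comparison. Its lowest, median and highest values were 19.1, 89.3 and 139.6 with saline, 44.2, 84.0 and 165 at 2 weeks of bleomycin and 58.6, 111 and 144 at 4 weeks. In the recovery groups they were 61.7, 115 and 173 (6 weeks) and 38.1, 73.4 and 111 (10 weeks). All 5 groups overlapped, and no neighbouring pair in the order of medians that was compared directly differed beyond its spread. The interval of the log2 difference from saline was -0.50 to 0.51 at 2 weeks (adjusted p = 0.992) and -0.25 to 0.76 at 4 weeks (adjusted p = 0.454), so a fall of the size seen for Wnt10b lies outside both intervals. Saline mouse 1, the mouse with the most of 8 of the other genes, had the least Fgf18 of all 44 mice.

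Among the transcription factors, Lef1, the DNA-binding partner of beta-catenin (chromosome 3, bases 131110471 to 131224356, plus strand), had lowest, median and highest values of 28.5, 194 and 1102 with saline, 19.8, 49.0 and 66.5 at 2 weeks of bleomycin and 36.3, 53.4 and 84.7 at 4 weeks. They were 53.7, 65.8 and 199 at 6 weeks of recovery and 45.9, 182 and 292 at 10 weeks. Saline mouse 2, at 28.5, lay among the bleomycin mice, so no 4-week mouse was below all saline mice, and saline mice 8 and 9, at 68.8 and 80.1, were below the highest 4-week mouse. An antisense gene and a gene on the same strand overlap Lef1, and their reads cannot be told apart with certainty. The log2 fold change against saline was -2.04 (SE 0.40, adjusted p = 8.1e-05) at 2 weeks and -1.64 (SE 0.40, adjusted p = 0.00114) at 4 weeks.

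Msx2 and Dlx3 are homeobox factors of the matrix and the forming shaft. Msx2 (chromosome 13, bases 53466884 to 53473074, minus strand) had lowest, median and highest values of 46.8, 293 and 1701 with saline, 42.1, 55.0 and 76.3 at 2 weeks and 51.9, 69.8 and 92.5 at 4 weeks of bleomycin, 63.6, 93.6 and 465 at 6 weeks and 52.5, 417 and 611 at 10 weeks of recovery. Saline mouse 2, at 46.8, was again inside the bleomycin range, and the other 9 saline mice were at 135 or above, higher than every bleomycin mouse. Dlx3 (chromosome 11, bases 95120119 to 95125296, plus strand) did not overlap between saline and bleomycin: its values were 317, 923 and 4871 with saline, 149.9, 224 and 277 at 2 weeks and 171, 188 and 307 at 4 weeks. Its values were 216, 333 and 1461 at 6 weeks of recovery and 263, 1225 and 2107 at 10 weeks. The log2 fold changes against saline at 2 and 4 weeks were -2.24 (SE 0.42, adjusted p = 3.55e-05) and -1.96 (SE 0.42, adjusted p = 0.000238) for Msx2. For Dlx3 they were -2.05 (SE 0.36, adjusted p = 1.53e-05) and -2.18 (SE 0.36, adjusted p = 5.31e-06).

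Hoxc13 and Foxn1 control hair keratin genes, and loss of Foxn1 gives the nude mouse. Hoxc13 (chromosome 15, bases 102921103 to 102928814, plus strand) had lowest, median and highest values of 81.1, 339 and 1653 with saline, 64.0, 73.3 and 103 at 2 weeks of bleomycin and 53.7, 76.3 and 101 at 4 weeks, with saline mouse 2 (81.1) alone of its group inside the bleomycin range. It rose to 113, 160.1 and 576 at 6 weeks of recovery and 129, 539.9 and 1109.8 at 10 weeks, both entirely above the mice at 4 weeks of bleomycin. Foxn1 (chromosome 11, bases 78357577 to 78386558, minus strand) had values of 129.7, 224 and 980.1 with saline, 59.1, 96.3 and 123 at 2 weeks and 65.3, 79.8 and 94.3 at 4 weeks of bleomycin, with no overlap between saline and either bleomycin group. After recovery it stood at 93.3, 121 and 384 at 6 weeks and 112, 320.5 and 588 at 10 weeks. The log2 fold changes at 2 and 4 weeks were -2.07 (SE 0.37, adjusted p = 1.37e-05) and -2.10 (SE 0.37, adjusted p = 1.11e-05) for Hoxc13, and -1.58 (SE 0.29, adjusted p = 1.85e-05) and -1.72 (SE 0.29, adjusted p = 4.68e-06) for Foxn1.

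Counted over the set, 9 of the 10 genes met the criteria as lower at 2 weeks of bleomycin (a change of over 1.5-fold with a limma p under 0.05 after Benjamini-Hochberg adjustment across the genes tested), against 7.43% of all genes tested. The same number was lower at 4 weeks, against 7.37%. The median log2 fold change of the 10 was -2.04 at 2 weeks and -1.84 at 4 weeks, beside a median over all genes of 0.00 at both times. Wnt10b, Dlx3 and Foxn1 did not overlap between saline and bleomycin, 3 of 10 at each time, against 1.33% of all genes at 2 weeks and 2.21% at 4 weeks that were lower without overlap. Between 2 and 4 weeks of bleomycin 0 of 10 genes was called in either direction, against 0.863% lower and 1.49% higher, and 0 had an unadjusted p below 0.05 in limma, where 3539 of the 17037 genes tested had such a p. The widest of these intervals was that of Shh, -0.04 to 2.46 on the log2 scale (adjusted p = 0.258). The fit shares 1 spread over all 5 groups. Msx2 had an SD of 0.27 and 0.23 log2 units at 2 and 4 weeks, against 1.34 with saline and 1.49 at 10 weeks of recovery. For such genes the interval is wider than the bleomycin mice alone would give, and a small difference can be missed. With only the 2 groups fitted, 0 of 10 genes was called as well.

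**Figure D2:**
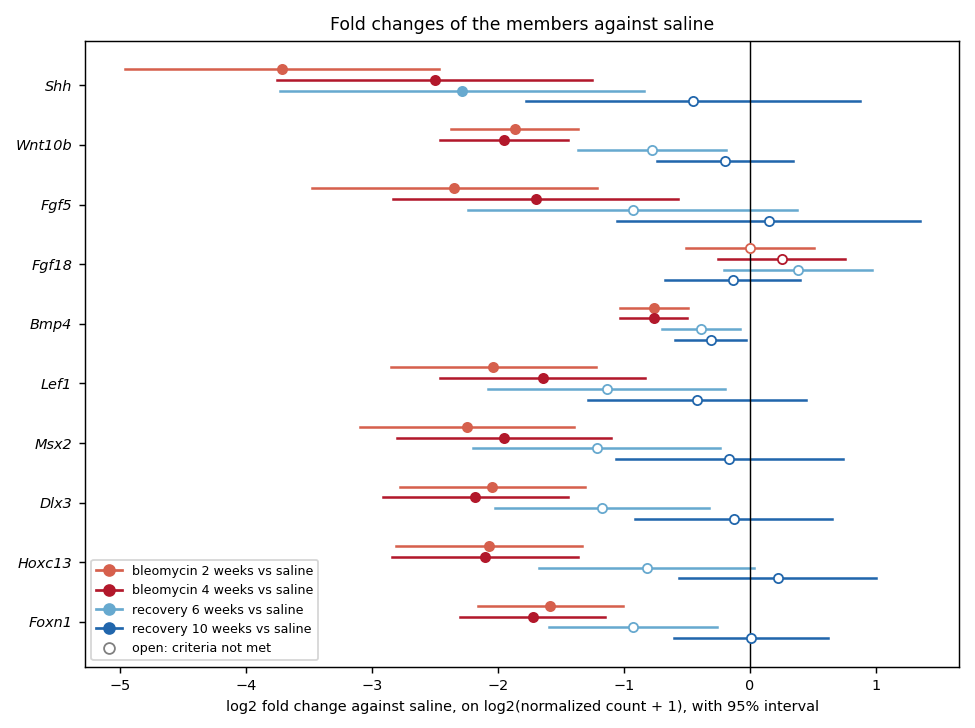
Log2 fold change of each gene against saline (x axis, on log2(normalized count + 1)) for the 4 comparisons with saline, with 95% intervals; filled points met the criteria and open points did not. The 2-week and 4-week points of 9 genes lie left of zero, from -3.71 for Shh to -0.76 for Bmp4, and the 10-week recovery points lie between -0.45 and 0.22.

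The second question of the design is what remained after bleomycin was stopped. At 6 weeks of recovery all genes but Fgf18 still had negative log2 differences from saline, from -2.28 for Shh to -0.39 for Bmp4, but only Shh met the criteria, at -2.28 (SE 0.72, adjusted p = 0.0361), 1 of 10 against 1.71% of all genes. The call of Shh lay near the threshold. Its log2 fold change stayed between -2.82 and -2.01 in the 44 fits that left out 1 mouse. The call was lost in 9 of these fits (adjusted p from 0.0504 to 0.118), namely without saline mouse 1, 3, 4 or 6 or recovery mouse 1, 2, 3, 5 or 6. It was also lost with a pseudocount of 0.1 (adjusted p = 0.101). edgeR called 3 of the 10 lower and DESeq2 called 6. The 1.71% is the share in limma, and the shares of all genes in edgeR and DESeq2 are not given here. Other genes sat close to the threshold in limma, with an adjusted p of 0.0654 for Foxn1, 0.0679 for Dlx3 and 0.0797 for Wnt10b. Without recovery mouse 4, Msx2 (log2 fold change -1.61), Dlx3 (-1.55) and Foxn1 (-1.21) were called lower as well, and without saline mouse 2 Lef1, Msx2, Dlx3 and Foxn1 were. The 6-week mice other than mouse 4 kept Msx2 between 63.6 and 109, where mouse 4 had 465.

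Against 4 weeks of bleomycin, 2 of 10 genes were higher at 6 weeks of recovery, against 4.8% of all genes: Wnt10b (1.18, SE 0.29, adjusted p = 0.00211) and Hoxc13 (1.28, SE 0.42, adjusted p = 0.0217). Both were free of overlap, as were 4.44% of all genes in that direction. The Hoxc13 call was lost without recovery mouse 4 (log2 fold change 0.96, adjusted p = 0.105), and Foxn1 and Dlx3 joined the called genes without saline mouse 1, and also in edgeR and in DESeq2, which each called 4. The 4.8% is again the share in limma alone. All 10 genes had positive differences, the smallest for Fgf18 (0.13) and Shh (0.22, interval -1.22 to 1.66).

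At 10 weeks of recovery 0 of 10 genes differed from saline by the criteria, against 0.998% of all genes lower and 2.05% higher, and at an unadjusted p below 0.05 limma found 1, Bmp4 (interval -0.59 to -0.03, adjusted p = 0.203), where 3247 of the 17037 genes tested had such a p. edgeR and DESeq2 on recovered reads also called 0. The intervals stayed wide, for example -1.77 to 0.88 for Shh and -1.29 to 0.44 for Lef1, and no equality is shown. In the direct comparison with 4 weeks of bleomycin, which was added after the data were seen, 8 of 10 genes were higher, against 6.73% of all genes. Hoxc13 showed the largest rise (2.32, SE 0.39, adjusted p = 7.1e-06), followed by Shh (2.05, SE 0.66, adjusted p = 0.0132) and Dlx3 (2.05, SE 0.39, adjusted p = 4.61e-05), and Hoxc13 and Foxn1 did so without overlap, 2 of 10 against 2.66% of all genes. Lef1 was the weakest of the 8 (1.22, SE 0.43, adjusted p = 0.0243) and was lost without recovery mouse 1, 2 or 8 (adjusted p of 0.0569, 0.0645 and 0.0603). Bmp4 had a fold of 1.37, under the threshold, and Fgf18 a log2 fold change of -0.39 (SE 0.27, adjusted p = 0.274). Between 6 and 10 weeks of recovery 0 of 10 genes was called, against 0.0704% of all genes lower and 0.0176% higher, although the median log2 difference was 0.99, and 5 of the 10 had an unadjusted p below 0.05, as had 2045 of the 17037 genes tested.

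**Figure D3:**
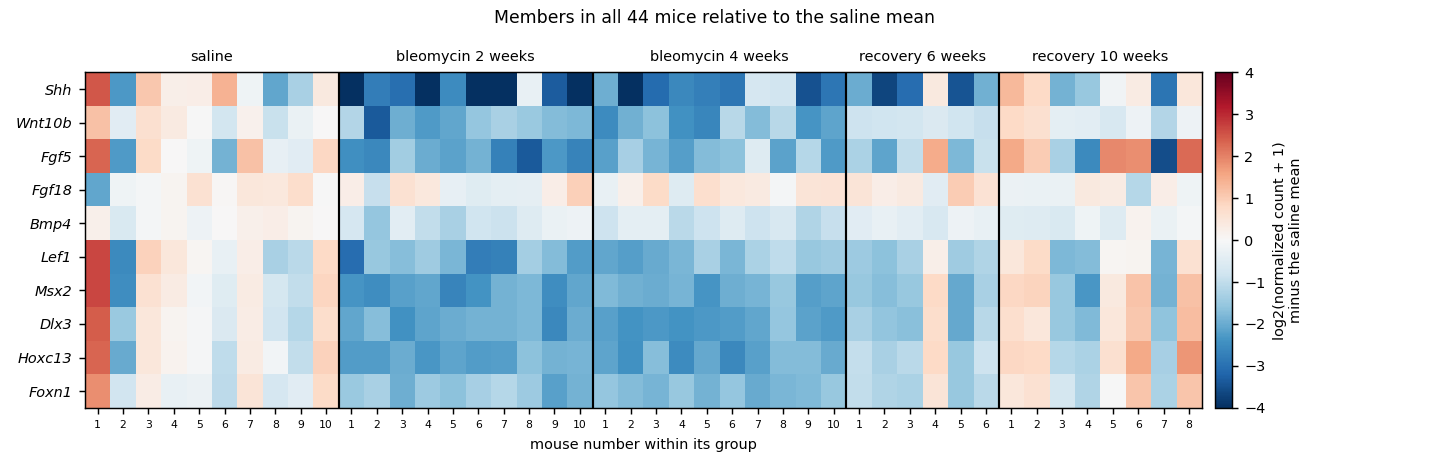
Log2(normalized count + 1) of each gene (rows) in each of the 44 mice (columns, by group and mouse number) minus the saline mean of that gene; blue is lower, red is higher, and values beyond 4 in size take the end colour. Columns share a colour over most rows, with saline mouse 1 and 10-week recovery mice 1, 2, 6 and 8 red and 10-week mice 3, 4 and 7 blue.

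Within groups the mice differed together. Saline mouse 1 had 1701 normalized counts of Msx2 and 4871 of Dlx3, where saline mouse 2 had 46.8 and 317. At 10 weeks of recovery, mice 1, 2, 5, 6 and 8 had Msx2 between 353 and 611, and mice 3, 4 and 7 between 52.5 and 92.3, inside the range at 4 weeks of bleomycin. The same 5 mice were also the highest for Lef1, Dlx3, Hoxc13, Foxn1, Fgf5 and Shh. Msx2 ran in bleomycin mice from 42.1 to 76.3 at 2 weeks and from 51.9 to 92.5 at 4 weeks. With group means taken off, the Spearman correlation over the 44 mice was 0.88 between Msx2 and Dlx3 and 0.84 between Foxn1 and Dlx3, and it was negative between Fgf18 and 8 other members, down to -0.54 with Foxn1. These correlations are a description over 44 libraries, 1 per mouse, and carry no test.

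The level of hair shaft and sheath keratins was read as the mean log2(normalized count + 1) of 18 genes found in the table. This list and the 10 genes were both chosen with earlier results of these data known, so their relation is not an independent check. All 18 were lower at 2 and at 4 weeks of bleomycin, with a median log2 fold change of -7.98 and -6.98, none was called at 6 or 10 weeks of recovery, and the medians there were -2.08 and 0.19. Krt25, a sheath keratin, had the largest change (-10.51, SE 1.25, adjusted p = 4.27e-09 at 2 weeks), followed by Krt71 (-9.68, SE 1.15, adjusted p = 4.74e-09). In each group the largest gap between neighbouring mice took up between 0.39 and 0.785 of the range of the level, so no correlation was pooled, and after seeing this the relation was computed within the larger set of each group that held at least 6 mice.

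In the 8 saline mice above the gap (mice 2 and 6 lay below it), 9 of the 10 genes correlated with the keratin level after adjustment over the 10 relations computed (two-sided exact permutation tests). The share of all genes that correlate with it in these mice was not computed, so the count cannot be called particular to the set. Fgf5 had the highest coefficient (Pearson r = 0.969, exact p = 0.000174, adjusted 0.000434, Spearman rho = 0.976, exact p = 0.000397). Foxn1 (r = 0.955), Dlx3 (r = 0.94), Msx2 (r = 0.939), Hoxc13 (r = 0.927) and Lef1 (r = 0.917) followed, with rho between 0.857 and 0.976, exact p for r from 4.96e-05 to 0.000818 and exact p for rho from 0.000397 to 0.0107. Shh (r = 0.839, exact p = 0.00838, rho = 0.762, exact p = 0.0368) and Wnt10b (r = 0.793, exact p = 0.0169, rho = 0.762, exact p = 0.0368) were weaker. Fgf18 ran the other way (r = -0.799, exact p = 0.00491, rho = -0.762, exact p = 0.0368), and Bmp4 showed no detectable relation (r = 0.125, exact p = 0.762, rho = 0.0476, exact p = 0.935). After leaving out the 2 mice whose keratin level was most distant from the median, r was 0.953 for Fgf5, 0.964 for Foxn1, 0.906 for Msx2 and 0.784 for Lef1. For Shh (0.62, exact p = 0.161), Wnt10b (0.616, exact p = 0.179) and Fgf18 (-0.597, exact p = 0.174) the relation was no longer past the threshold in the 6 mice left. Over all 10 saline mice 7 genes passed the adjustment. There r was 0.771 for Wnt10b (permutation p = 0.00952, rho = 0.818, permutation p = 0.00571), so only for Shh (r = 0.456, permutation p = 0.188) and Fgf18 (r = -0.351, permutation p = 0.327) of these 3 did both checks miss it. Saline mouse 6, below the gap, had 84.9 normalized counts of Shh, the second highest of its group.

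**Figure D4:**
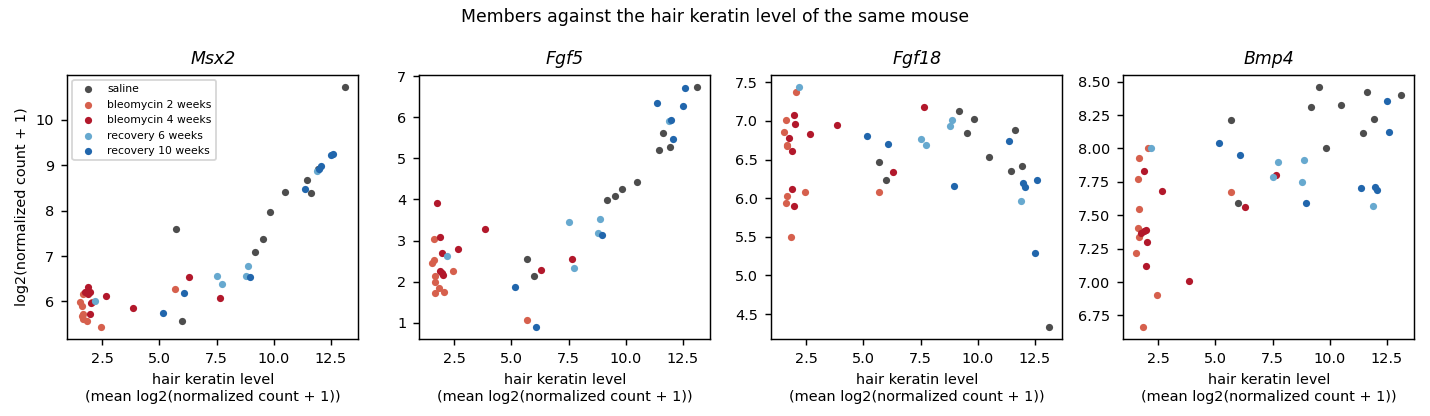
Log2(normalized count + 1) of 4 genes (y axes) against the hair keratin level of the same mouse (x axis, mean log2(normalized count + 1) of 18 hair keratin genes), with 1 point per mouse coloured by group. Msx2 and Fgf5 climb over the upper part of the range in saline and recovery mice and are flat among bleomycin mice, while Fgf18 is lowest in the mouse with the highest keratin level.

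In the 6 mice of the 10-week recovery group above the gap, 4 genes passed the adjustment: Msx2 (r = 0.999, exact p = 0.00139, rho = 1.00, exact p = 0.00278), Dlx3 (r = 0.986, exact p = 0.00556, rho = 0.943, exact p = 0.0167), Hoxc13 (r = 0.977, exact p = 0.00278, rho = 0.943, exact p = 0.0167) and Foxn1 (r = 0.945, exact p = 0.00139, rho = 1.00, exact p = 0.00278). Mouse 3 stood apart within this set, with a keratin level of 8.96 where the other mice lay between 11.4 and 12.6. It was also the lowest of the 6 for each of these 4 genes. The r values therefore largely contrast mouse 3 with the others, and r without it was not computed. Too few mice remain there to leave 2 out, and the share of all genes was not computed there either. In the bleomycin groups, 0 of 10 genes did among the 9 mice at 2 weeks or the 8 at 4 weeks below the gap, where the keratins were close to the floor. Shh and the keratins did not always go together there. Mouse 7 at 4 weeks had 19.7 normalized counts of Shh with 1.57 of Krt25, mouse 3 had 2.93 of Shh with 1233 of Krt25, and mouse 8 had 18.7 and 717 of them. At 2 weeks mouse 8 was the highest of its group for both, with 26.1 of Shh and 504 of Krt25.

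Of the genes outside the set and its related lists, those whose pattern over the 44 mice (group means off) was most like each member's were, by Spearman rho, Lap3 for Lef1 (0.922), Tgm3 for Foxn1 (0.916), Crym for Hoxc13 (0.913), the noncoding D730001G18Rik for Dlx3 (0.904), Gja1 for Msx2 (0.893) and Elf5 for Fgf5 (0.832). Tgm3 is a transglutaminase of the hair shaft and Gja1 a gap junction protein. Slc30a1, a zinc exporter, was among the 3 nearest genes of both Msx2 (0.873) and Dlx3 (0.888), and Dlx4, the chromosomal neighbour of Dlx3, was its second (0.902). Shh was most like the replication genes Ticrr (0.785), Mcm3 (0.778) and Uhrf1 (0.771). Fgf18 was nearest to Avpr1a (0.785), Wnt10b to Dclk2 (0.75) and Bmp4 to Ism1 (0.697).

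The other genes of the same pathways moved in part. For scale, of the 17037 genes tested 1266 were lower and 1585 higher than saline at 2 weeks of bleomycin, and 1256 and 1797 at 4 weeks. At 6 weeks of recovery 292 were lower and 567 higher, and at 10 weeks 170 and 349. The list counts were not tested against these. Of 11 Hedgehog pathway genes, 5 were lower and 0 higher at both bleomycin times, and none was called after recovery. Gli1, a target and effector of the pathway, was among those that fell, with log2 fold changes of -1.27 (SE 0.19, adjusted p = 6.24e-07) at 2 weeks and -0.76 (SE 0.19, adjusted p = 0.00138) at 4 weeks. The list's median was -0.57 at 2 weeks and -0.39 at 4 weeks.

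Among 24 tested WNT pathway genes, 10 were lower at 2 weeks and 7 at 4 weeks, with 0 higher, and the list's medians were -0.47 and -0.30. The largest falls were in Sfrp2 (-2.47, SE 0.28, adjusted p = 9.01e-10 at 2 weeks) and Sfrp4, secreted WNT antagonists, and at 4 weeks the ligand Wnt5a (-1.35, SE 0.18, adjusted p = 4.24e-08) was the second. Sfrp4 stood at -2.60 (SE 0.28, adjusted p = 3.09e-10) at 4 weeks, and at 6 weeks of recovery it was above saline (2.02, SE 0.32, adjusted p = 3.84e-05), as was Sfrp2 (1.99, SE 0.32, adjusted p = 4.37e-05). Both were still above saline at 10 weeks of recovery (1.84, SE 0.29, adjusted p = 8.84e-05 for Sfrp4), when no hair growth regulator of the set was called. In all, 2 genes of the list were higher and 3 lower at 6 weeks, and 2 higher and 1 lower at 10 weeks.

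Of 17 BMP pathway genes, 4 were lower and 1 higher at 2 weeks, 2 lower and 2 higher at 4 weeks, and 2 and 1 higher at 6 and 10 weeks of recovery. The ligand Bmp8a (-2.55, SE 0.51, adjusted p = 8.07e-05 at 4 weeks) and the pseudoreceptor Bambi (-1.59, SE 0.38, adjusted p = 0.000854) had the largest falls. Of 14 tested FGF pathway genes, 4 were lower at both bleomycin times, led by Etv4 at 2 weeks (-1.01, SE 0.21, adjusted p = 0.000116) and Fgf22 at 4 weeks (-1.24, SE 0.29, adjusted p = 0.000562), and 1 was lower at each recovery time. The medians at 2 weeks were -0.18 for the BMP list and -0.44 for the FGF list.

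Of 14 other follicle transcription factors tested, 7 were lower at each bleomycin time, 2 after 6 weeks without bleomycin and 0 after 10 weeks, with none higher. Dlx2 and Msx1, paralogs of members of the set, fell most (-2.97, SE 0.48, adjusted p = 2.44e-06 and -2.68 (SE 0.32, adjusted p = 6.02e-09) at 2 weeks). Dermal papilla markers were mixed: of 11, 3 were lower at both bleomycin times, Corin most of all (-1.69, SE 0.45, adjusted p = 0.00261 at 4 weeks), and 2 were higher at 4 weeks, led by Crabp1 (1.35, SE 0.20, adjusted p = 3.99e-07). After 6 weeks of recovery 2 papilla markers were higher than saline, Crabp1 among them (0.77, SE 0.23, adjusted p = 0.0249), and after 10 weeks 0 was called. Of 8 bulge stem cell markers 3 were lower at both bleomycin times, led by Tbx1 (-1.16, SE 0.19, adjusted p = 3.01e-06 at 2 weeks), and none after recovery. The list medians at 4 weeks were -0.58, 0.23 and -0.22 in this order.

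**Figure D5:**
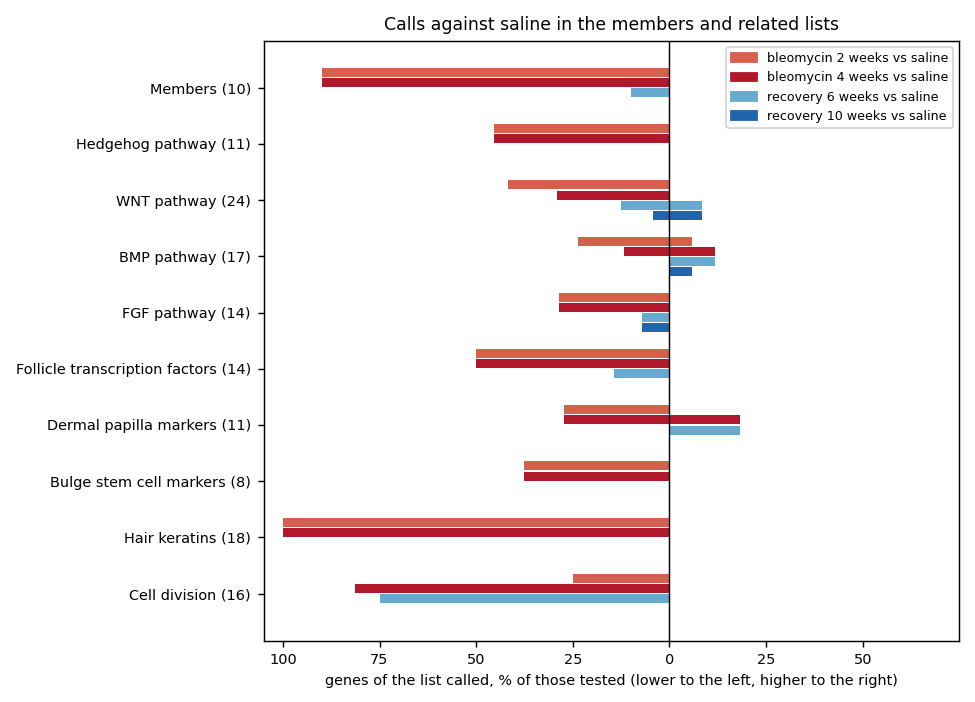
Share of the tested genes of each list (number tested in brackets) that were called lower (left) or higher (right) against saline, in percent, for the 4 comparisons; the first line is the set of 10 described here. In the set and the hair keratins 90% or more of the genes were lower at 2 and 4 weeks, and smaller shares in the other lists.

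Markers of division and of other cells moved with some of these comparisons. Of 16 cell division genes, bleomycin skin had 4 lower after 2 weeks and 13 after 4 weeks, and recovery skin 12 (6 weeks) and 0 (10 weeks). Their summed level ranged from 4459 to 13081 with saline and from 2572 to 5301 at 4 weeks of bleomycin. Of 10 macrophage genes 7 were higher and 1 lower at both bleomycin times, with a summed level of 12141 to 30124 with saline and 26281 to 65387 at 2 weeks. Of 9 fat cell genes 4 were lower at both times (18027 to 32236 with saline, 10808 to 28388 at 2 weeks), and of 6 fibroblast genes 3 were lower at 2 weeks and 1 at each later comparison (97875 to 227242 with saline, 49119 to 172900.0 at 2 weeks). Of 7 tested epidermal genes 0 was called at 2 weeks and 2 were lower at 4 weeks (188620.0 to 262261 at 4 weeks), and of 10 skeletal muscle genes 1 was higher at 2 weeks and 3 in each later comparison (131850.0 to 291316 at 2 weeks). Apart from Flg at 0 in every mouse of the 10-week recovery group, no gene of these 6 lists was at 0 throughout a group. Of 8 epidermal genes in the table only 7 passed the filter of a mean above 3, so the 0 of Flg is not read as a loss. Their part in the changes of the 10 genes was not tested.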

How the data were processed

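The authors deposited normalized read counts per gene (signal: counts of RNA-seq reads divided by DESeq2 size factors, DESeq2 1.12.3 after STAR 2.4.0 alignment to mm10). Which program counted the reads, on which strand and with which gene models, is not given in the sources used here. Values above 0 were whole multiples of 1 read in every mouse (100% within 0.1 of a whole read), so reads were recovered and totalled 8509094 to 15285577 per mouse.

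Genes with a mean above 3 (17037) were tested on log2(normalized count + 1) with limma 3.58.1 (trend) over all 44 mice. A gene was called at a fold change above 1.5 and a Benjamini-Hochberg adjusted p below 0.05 over all genes. The 4 treated groups were compared with saline and in sequence with each other. Alternatives were edgeR 4.0.16 and DESeq2 1.42.0 on recovered reads, other pseudocounts, filters, thresholds, scalings, a replicate block and leaving out mice. The comparison of 10 weeks of recovery with 4 weeks of bleomycin was added after the data were seen. Replicate numbers did not pair the mice: over 78 same-numbered pairs the correlation of deviations ran from -0.691 to 0.381 (median -0.0022), above 0.1 in 18.

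The text names all 10 members and, of the rest, draws its names from the 3 genes outside the members and related lists most correlated with each and the 2 called genes of each list with the largest change. Not all of these are printed, the cell type and division lists are given by counts and summed levels only, and 1 gene is not reported here. The members and lists were chosen with earlier results of these data known. Gene coordinates are from GENCODE (GRCm38) and promoters from RefSeq. Scripts ran in R 4.3.3 and Python 3.11.15 (numpy 2.4.6, pandas 2.3.3, scipy 1.17.1, matplotlib 3.10.9) and were tested on simulated data. Intervals are 95% confidence intervals for a difference of group means, estimated from the spread between mice, and do not give the range of the mice.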

Additional observations from a re-analysis of the deposited data

Results flagged for a closer look

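In 12 of 50 tests, each of 1 gene in 1 group, a single mouse stood farther from its group than Dixon's critical value, where chance gives about 1 in 20. Of these, 6 were mouse 4 at 6 weeks of recovery, with 199 normalized counts of Lef1, 465 of Msx2, 576 of Hoxc13, 384 of Foxn1, 1461 of Dlx3 and 58.6 of Fgf5, each the highest of its group. The same mouse enters all 6, so they are not independent. The others were mouse 8 at 2 weeks of bleomycin for Shh (26.1), mouse 2 at 2 weeks for Wnt10b (5.20, the lowest), mouse 8 at 4 weeks for Dlx3 (307, the highest), saline mouse 1 for Fgf18 (19.1, the lowest), mouse 6 at 10 weeks of recovery for Fgf18 (38.1, the lowest) and saline mouse 2 for Bmp4 (192, the lowest).

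Direct tests between groups, in limma with adjustment over all genes, found some members to differ between recovery and 4 weeks of bleomycin. Between 2 and 4 weeks of bleomycin, and between 6 and 10 weeks of recovery, 0 of the 10 members was called. The 6-week recovery mice minus the 4-week bleomycin mice gave a log2 difference of 1.18 for Wnt10b and 1.28 for Hoxc13. The 10-week recovery mice minus the same bleomycin mice gave 2.05 for Shh, 1.22 for Lef1, 1.76 for Wnt10b, 1.79 for Msx2, 2.32 for Hoxc13, 1.73 for Foxn1, 2.05 for Dlx3 and 1.85 for Fgf5. Age at harvest and group cannot be told apart in these differences.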

How the results depend on the processing

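At 2 and 4 weeks of bleomycin 9 of the 10 genes were called under all 12 alternatives and in all 44 fits without 1 mouse, and 0 were called at 10 weeks of recovery against saline, between the bleomycin times and between the recovery times. Over 80 gene and comparison pairs, 21 of 960 calls changed under the alternatives, 27 of 3520 changed without 1 mouse, and 0 reversed. For 6 weeks of recovery against saline (1 called) the count was 0 with a pseudocount of 0.1, without the filter, with only the 2 groups fitted and without saline mouse 1 and 2-week mouse 2, 3 in edgeR and 6 in DESeq2, and 0 to 5 without 1 mouse. For 6 weeks of recovery against 4 weeks of bleomycin (2 called) it was 4 with only the 2 groups fitted, in edgeR, in DESeq2 and without the 2 mice, and 1 to 4 without 1 mouse. For 10 weeks of recovery against 4 weeks of bleomycin (8 called) it was 7 to 8 without 1 mouse, Shh was lost with a pseudocount of 0.1 (adjusted p = 0.0520) and Bmp4 was added with no fold threshold. With the replicate block the counts were 9, 9, 1 and 0 against saline, and the block changed no member's call. The number of members correlated with the keratin level (9 in saline) was 0 within each bleomycin group and 4 at 10 weeks of recovery. The cause of these shifts was not tested.

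Called log2 values that moved by over 1.5 times, counted as fold changes, were those of 4 genes. Shh at 2 weeks was -5.45 with a pseudocount of 0.1, Msx2 -2.83 and -2.55 at 2 and 4 weeks and Lef1 -2.25 at 4 weeks in DESeq2, and Fgf5 -3.04 in edgeR and -3.11 in DESeq2 at 2 weeks, -2.30 in DESeq2 at 4 weeks, and 2.86 in edgeR and 2.92 in DESeq2 for 10 weeks of recovery against 4 weeks of bleomycin. Over all genes, 1585 were higher and 1266 lower at 2 weeks of bleomycin, 1797 and 1256 at 4 weeks, 567 and 292 at 6 weeks and 349 and 170 at 10 weeks of recovery, 253 and 147 between the bleomycin times, 818 and 1217 at 6 weeks and 1147 and 1550 at 10 weeks of recovery against 4 weeks of bleomycin, and 3 and 12 between the recovery times. With no fold threshold the totals, in this order, were 6063, 6242, 1547, 994, 956, 4260 and 5576, the last comparison apart. With only the 2 groups fitted the totals were 326 for 10 weeks of recovery against saline and 56 between the recovery times, where DESeq2 gave 63 and leaving out the 2 mice 58. Depth limits Shh and Fgf5, with 8 and 6 of 10 mice at or under 3 reads at 2 weeks of bleomycin.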
